A study of Mus musculus with 4 samples.

Results

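The Cd209a+ dendritic cells described here were 874 of 41533 mouse heart cells profiled by droplet-based single cell RNA sequencing. They were selected on measured values, as cells with at least 2 unique molecular identifiers (UMIs, each standing for 1 captured transcript) of Cd209a, 0 UMIs of Ccr7, and under 30 UMIs of the complement genes C1qa, C1qb and C1qc together per 10000 UMIs of the cell. Cells entered with 500 to 40000 UMIs and more than 200 genes detected. Because the selection read these 5 genes, their levels are given as a description only, and genes that travel with Cd209a or against the C1q genes in the same cells were selected indirectly as well.

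All mice carried the CSF1R-EGFP reporter, in which the Csf1r promoter drives a green fluorescent protein, and were 12 to 16 weeks old. The baseline group had no surgery and was 1 library from 3 pooled hearts. The infarct group was 3 libraries, each of EGFP-positive cells of 1 infarcted heart taken 7 days after coronary occlusion, from which remote myocardium had been left out. Cells were sorted as EGFP-positive and Ly6G-negative, so dendritic cells entered only as far as they carried the reporter.

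Conventional dendritic cells are migratory leukocytes that take up antigen and present it to T cells on major histocompatibility complex (MHC) class II molecules. The type 2 lineage, which presents mainly to CD4+ T cells, carries surface lectins such as CD209a and CLEC10A and depends on the growth factor receptor FLT3. On receipt of a maturation signal, these cells raise the chemokine receptor CCR7 and leave the tissue for the draining lymph node, and a heart after coronary occlusion holds them among far more numerous macrophages and monocytes.

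The baseline library kept 10238 cells, and the infarct libraries kept 10396, 10782 and 10117 cells, with 70982109 to 97301304 UMIs a library. The median cell of the baseline library had 6398.5 UMIs against 8469.5 to 8556.5 in the infarct libraries. The Cd209a+ cells were deeper and closer to each other, with medians of 10393 UMIs at baseline and of 9898, 9696 and 9907 UMIs in infarct libraries 1 to 3. Pairs of libraries shared 26 to 34 cell barcodes, at most 0.332% of the smaller library. Infarct library 3 stood apart in the genes of the sex chromosomes. Xist, expressed from the inactive X chromosome, was at 674 CPM in its Cd209a+ cells (CPM, UMIs per 1000000 UMIs of non-mitochondrial genes, over the summed cells of a class in a library) and at 0 in those of the other 3 libraries, whereas Y-linked Ddx3y was at 0 in it and at 73.7 to 76.8 CPM in the others. The baseline library also held more Gm42418, a transcript that overlaps ribosomal RNA, with 31683 CPM in its Cd209a+ cells against 10584, 6856 and 7942 CPM in the infarct libraries. Whether these features take part in the differences between groups was not tested.

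Cd209a encodes a C-type lectin of the DC-SIGN family and lies at chr8:3743397-3748984 on the minus strand (mm10). The Cd209a+ cells held a median of 9 Cd209a UMIs at baseline and of 9, 9 and 8 in infarct libraries 1 to 3, with the highest cells at 51, 53, 70 and 42. Most were therefore far from the limit of 2 UMIs. At the limit itself, 29 baseline cells and 33, 15 and 20 infarct cells had exactly 2 UMIs, and 66 baseline cells and 82, 38 and 28 infarct cells fell just outside with exactly 1. The C1q limit lay in a sparse range, with 10 cells at baseline and 18, 10 and 9 cells of the infarct libraries between 15 and 30 UMIs per 10000, and 19, 21, 8 and 12 cells outside it between 30 and 60. Cells that met the other limits but held a Ccr7 UMI numbered 7 at baseline and 5, 4 and 2 in the infarct libraries.

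The 300 bases of reference sequence around the Cd209a start site are shown because this gene defines the population. The window runs from 250 bases before the start to 50 bases from it, at chr8:3748935-3749234, minus strand, and is from RefSeq on GRCm38.p6. Capitals mark the only match, on the opposite strand, to the ETS-IRF composite element, which factors of the ETS and IRF families are known to bind.
Cd209a: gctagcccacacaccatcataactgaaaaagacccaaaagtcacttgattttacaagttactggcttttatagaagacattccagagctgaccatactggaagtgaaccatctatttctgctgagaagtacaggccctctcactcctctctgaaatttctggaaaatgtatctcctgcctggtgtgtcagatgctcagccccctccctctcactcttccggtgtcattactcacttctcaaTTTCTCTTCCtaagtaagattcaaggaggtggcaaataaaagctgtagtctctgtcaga
The match spans the bases from 9 before the start site to the start base. Of 32851 promoter windows of this length, 892 (2.72%) held the element on either strand, and a match describes letters only.

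The label of type 2 dendritic cells came with 3 markers besides Cd209a. They were named with the population when earlier results of these data were known, so their levels describe it and do not test the label. Klrd1, which encodes the CD94 receptor best known from natural killer cells (chr6:129591782-129598775, plus strand), stood at 249 CPM in the Cd209a+ cells at baseline and at 581, 724 and 519 CPM in infarct libraries 1 to 3, against 6.52 CPM and 14.5, 11.9 and 10.2 CPM in all other cells of the same libraries. H2-DMb2, a chain of the class II peptide-loading catalyst H2-DM (chr17:34143307-34151555, plus strand), stood at 89.7 CPM at baseline and 214, 223 and 151 CPM in the infarct libraries, against 11.0 CPM and 11.3, 7.87 and 8.75 CPM. Ifitm1, an interferon-inducible membrane protein (chr7:140967221-140969825, plus strand), stood at 23.6 CPM at baseline and 1724, 2407 and 649.9 CPM in the infarct libraries, against 8.88 CPM and 77.1, 87.2 and 15.7 CPM. All 3 were therefore higher in the Cd209a+ cells than in the other cells of every library, but Ifitm1 marked them far less at baseline, where the ratio was 2.65, than after infarction, where it was 26.6. Other classes held them too. Cells with UMIs of both Ccr7 and Fscn1, genes of mature dendritic cells, had 228 ± 146 CPM of Klrd1 and 217 ± 23.5 CPM of H2-DMb2, and classical monocyte-like cells had 241 ± 160.5 CPM of Ifitm1 (mean ± SD, n = 3 infarct libraries).

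Within a library, these markers fell only partly on the same cells. Ifitm1 was found in 13.75% of Cd209a+ cells with a Klrd1 UMI at baseline and in 74.7, 67.9 and 49.3% of those in infarct libraries 1 to 3. In Cd209a+ cells without Klrd1, it was found in 5.71% and 49.0, 47.4 and 19.4%. H2-DMb2 was also found more often in cells with Klrd1 than in those without, in every library. At least 1 Klrd1 UMI was found in 60.4% of Cd209a+ cells at baseline (exact binomial 95% interval 54.2 to 66.3%) and in 81.5, 87.6 and 80.0% in infarct libraries 1 to 3, against 1.12% and 1.48, 1.47 and 0.963% of the cells over the C1q limit, a macrophage-rich class given as the background level. Ifitm1 was found in 10.6% (interval 7.14 to 14.9%) and 69.9, 65.4 and 43.3% of them, against 1.12% and 5.13, 3.97 and 2.29% of cells over the C1q limit. H2-DMb2 was found in 38.5% (interval 32.6 to 44.6%) and 54.3, 59.5 and 43.3%, against 3.00% and 3.25, 2.74 and 2.69%. Cells over the limit had median depths of 6621 UMIs at baseline and 8556 to 8687 UMIs in the infarct libraries, below those of the Cd209a+ cells. With each cell thinned to 2000 UMIs, which left out 1 shallower Cd209a+ cell at baseline and 3, 1 and 5 in the infarct libraries, Klrd1 was found in 28.8% at baseline and 55.5% ± 0.996 in the infarct libraries (SD, n = 3), Ifitm1 in 3.03% and 47.1% ± 15.1, and H2-DMb2 in 15.5% and 26.2% ± 5.04. The order of the groups was the same as without thinning. Counting the 3 markers together, 26.4% of Cd209a+ cells at baseline showed none and 3.77% showed all, whereas 3.92 to 11.7% of those in the infarct libraries showed none and 21.7 to 38.6% showed all. The intervals cover counting error only.

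**Figure D1:**
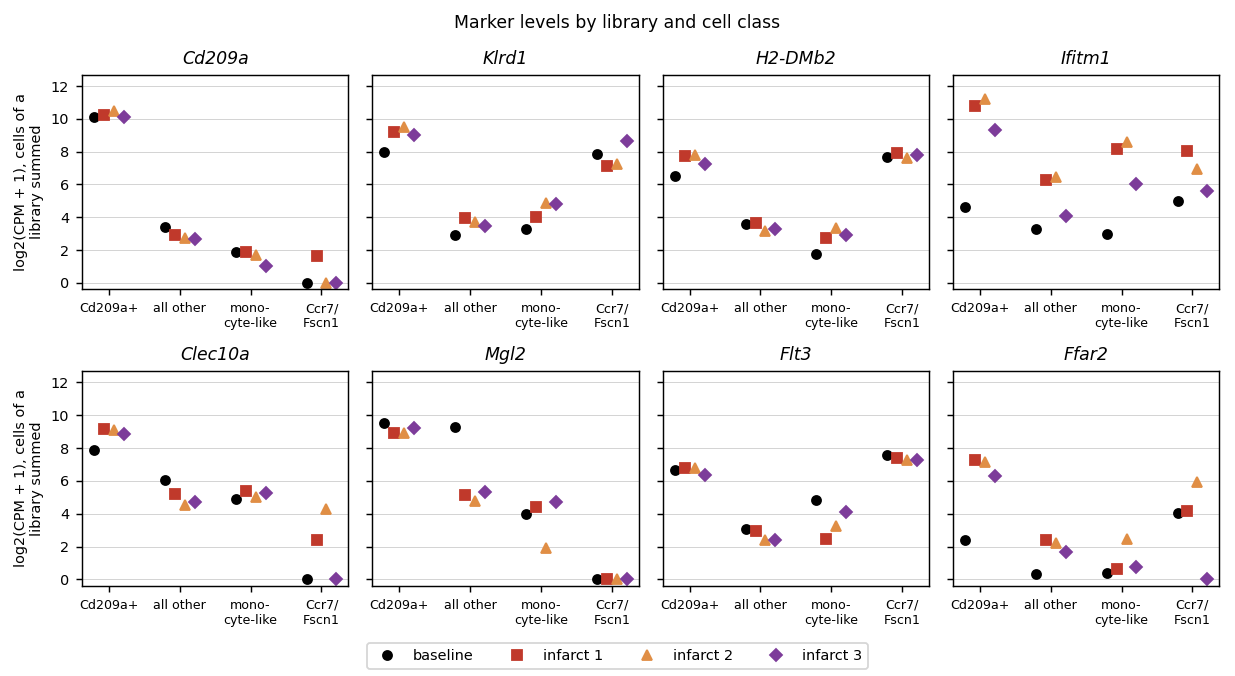
Level of 8 genes in 4 cell classes, as log2(CPM + 1) with the cells of a class in a library summed; each point is 1 library and the classes are named under the axis. Cd209a, read by the selection, sits between 1089 and 1402 CPM in the Cd209a+ cells of all 4 libraries, while Ifitm1 and Ffar2 are low there at baseline and high in the 3 infarct libraries.

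Listed type 2 markers that the selection did not read, also chosen with earlier results of these data known, went partly with the label. Of 14 listed genes of the type 2 lineage that could be tested against all other cells of the infarct libraries, 8 were higher (Mgl2, Cd7, Clec10a, Tnip3, Il1r2, S100a4, Irf4 and Ccr6) and 3 were lower (Sirpa, Clec4a2 and Itgam), with a median log2 difference of 2.48 against -0.09 for all genes tested. The defining genes of natural killer and T cells were at or near 0, with Ncr1, Cd3e, Cd3g and Il2rb at 0 in the Cd209a+ cells of all 4 libraries, and the 6 listed B cell genes past the threshold were all lower. Of the highest doublet scores, they held few, with 2.64% of Cd209a+ cells at baseline and 2.05% ± 0.442 (SD, n = 3) in the infarct libraries among the highest doublet scores, against 8.19% and 8.35% ± 0.266 of all cells. Cells over the C1q limit held at least 1 Cd209a UMI in 1.74% at baseline and 1.10% ± 0.292 in the infarct libraries. At least 2 were held by 0.734% and 0.443% ± 0.0809. The highest of these cells had 35 Cd209a UMIs at baseline and 25, 38 and 41 in infarct libraries 1 to 3. How much of this was free Cd209a RNA was not tested. Some other classes, from which Cd209a+ cells were not taken out, had higher shares. At baseline, 6.62% of 151 cells with at least 3 UMIs of Pecam1, Cdh5 and Kdr held at least 1, and 4.64% at least 2. Low-C1q cells with at least 3 UMIs of Cd79a, Cd79b and Ms4a1 were a further class. Of these, 3 of 88 at baseline held a Cd209a UMI, and 1 of 28, 2 of 15 and 0 of 44 in the infarct libraries.

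The Cd209a+ cells made up 2.59% of the cells kept at baseline (265 cells, exact binomial 95% interval 2.29 to 2.91%). They made up 2.65% (interval 2.35 to 2.98%), 1.42% (1.20 to 1.66%) and 1.78% (1.53 to 2.06%) of infarct libraries 1 to 3, with a mean of 1.95% ± 0.636 (SD, n = 3). The baseline share lay within the range of the infarct libraries. Of the cells under the C1q limit alone, they were 7.43% at baseline (interval 6.59 to 8.34%) and 10.8%, 8.68% and 10.6% in the infarct libraries, a mean of 10.0% ± 1.16, so that on this denominator the baseline share was below all 3. The interval of infarct library 2 (7.41 to 10.1%) overlapped that of baseline, and those of the other 2 did not. With each cell thinned to 2000 UMIs, the shares of all cells were 1.67% at baseline and 1.19% as the infarct mean, and baseline then lay above the highest infarct library, at 1.59%. With no C1q limit, baseline (3.07%) was also above the highest infarct library (3.06%), so its place within the infarct range depends on these settings. With a single baseline library, a difference between groups could not be tested, and both shares are relative to the other cells in the sort. At least 2 UMIs of Xcr1 and Clec9a together, genes of type 1 dendritic cells, were found in 7.92% of Cd209a+ cells at baseline and 0.919% ± 0.799 in the infarct libraries. At baseline these cells held 0 UMIs of Xcr1 and 281 CPM of Clec9a, beside 1023 CPM of Ly6c2, 1944 CPM of Plac8 and 562 CPM of Cd7, so the share rests on Clec9a alone.

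**Figure D2:**
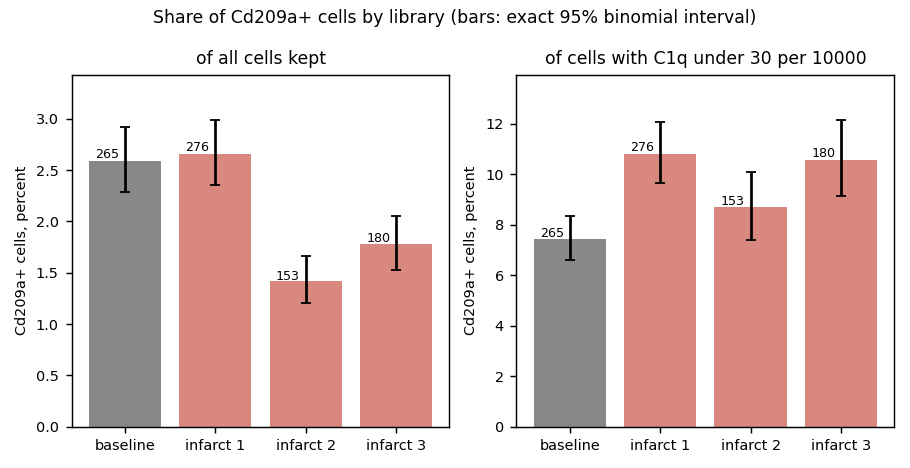
Cd209a+ cells as a percent of all cells kept (left) and of cells under the C1q limit (right), 1 bar per library starting at 0; error bars are exact 95% binomial intervals and the numbers are cells. Baseline (2.59%) lies within the infarct range of 1.42 to 2.65% on the left and below the infarct range of 8.68 to 10.8% on the right.

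To ask what sets these cells apart, their UMIs were summed within each infarct library and compared with those of other cells in the same library by edgeR's quasi-likelihood test, with the library as a block and a gene called at an adjusted p under 0.01. Against all other cells, which were mostly macrophages, 1987 of 13180 genes (15.1%) were higher and 2270 (17.2%) were lower, the 5 genes of the selection and the 3 other markers left out. Against classical monocyte-like cells, defined by at least 2 UMIs of Ly6c2 under the same C1q and Ccr7 limits (596, 472 and 343 cells), 1073 of 9388 genes (11.4%) were higher and 1164 (12.4%) lower. Against cells with Ccr7 and Fscn1 (64, 40 and 23 cells), 958 of 7443 genes (12.9%) were higher and 1030 (13.8%) lower. The classes were themselves cut from single genes, so genes that go with Ly6c2, or with Ccr7 and Fscn1, were partly chosen. With the library as a block, the tests read how far the difference between classes varied among the 3 infarct hearts.

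Listed genes of conventional dendritic cells were mostly higher in Cd209a+ cells than in both macrophage-rich and monocyte-like cells. This list, which holds Ffar2, was chosen with earlier results of these data known, as were the other lists. Its counts therefore describe the cells and are no independent support for a lineage. Of the 13 listed genes, 12 were higher and none lower against all other cells (median log2 difference 3.64, against -0.09 for all genes), and 12 were higher and none lower against monocyte-like cells (median 2.89, against -0.00). The 1 gene not past the threshold differed, being Cd83 in the first comparison and Cytip in the second. Flt3, the receptor for the growth factor on which these cells depend, stood at 102 CPM at baseline and 108, 109 and 80.2 CPM in infarct libraries 1 to 3, against 6.70, 4.27 and 4.24 CPM in other infarct cells, and no library of one class overlapped the other. The log2 fold change of Flt3 was 4.32 (SE 0.13) against all other cells and 3.56 (SE 0.29) against monocyte-like cells (edgeR adjusted p = 3.1e-18 and 3.6e-06). Zbtb46, a transcription factor of the conventional lineage, stood at 34.6 CPM at baseline and 30.6, 23.8 and 29.1 CPM in the infarct libraries, against 1.77, 1.03 and 1.10 CPM in other cells, with a log2 fold change of 4.46 (SE 0.27). Dpp4, a surface peptidase, stood at 179.8 and 169, 174 and 168 CPM, against 12.2, 9.34 and 9.88 CPM, with a log2 fold change of 4.05 (SE 0.10). The baseline level of each of these 3 genes was slightly above its infarct mean. Kmo, an enzyme of tryptophan breakdown, differed from all other cells by 3.64 (SE 0.11), and Itgax, which encodes CD11c, by 2.25 (SE 0.09).

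Transcription factors split along the same line. Of 21 listed, 12 were higher and 4 lower against all other cells, and 7 were higher and 4 lower against monocyte-like cells, the 4 lower ones being Maf, Cebpb, Zeb2 and Irf8 in both. Bcl11a, needed for dendritic and lymphoid development, stood at 157, 157 and 105 CPM in the infarct libraries against 11.5, 7.07 and 8.51 CPM in other cells, a log2 fold change of 3.97 (SE 0.13). Irf4, a factor on which type 2 dendritic cells depend, stood at 74.1 CPM at baseline and 55.0, 33.8 and 23.6 CPM after infarction, against 21.7 and 9.28, 3.17 and 4.61 CPM in other cells, with log2 fold changes of 2.77 (SE 0.20) against all other and 2.13 (SE 0.21) against monocyte-like cells. Irf8, the factor of the type 1 lineage, had log2 fold changes of -1.18 (SE 0.10) and -0.94 (SE 0.16). The type 1 list as a whole was divided, with 6 of 14 genes higher (Cd24a, Wdfy4, Ifi205, Naaa, Itgae and Plet1) and 5 lower against all other cells (median 0.95), and 3 of 9 higher and 4 lower against monocyte-like cells (0.05).

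**Figure D3:**
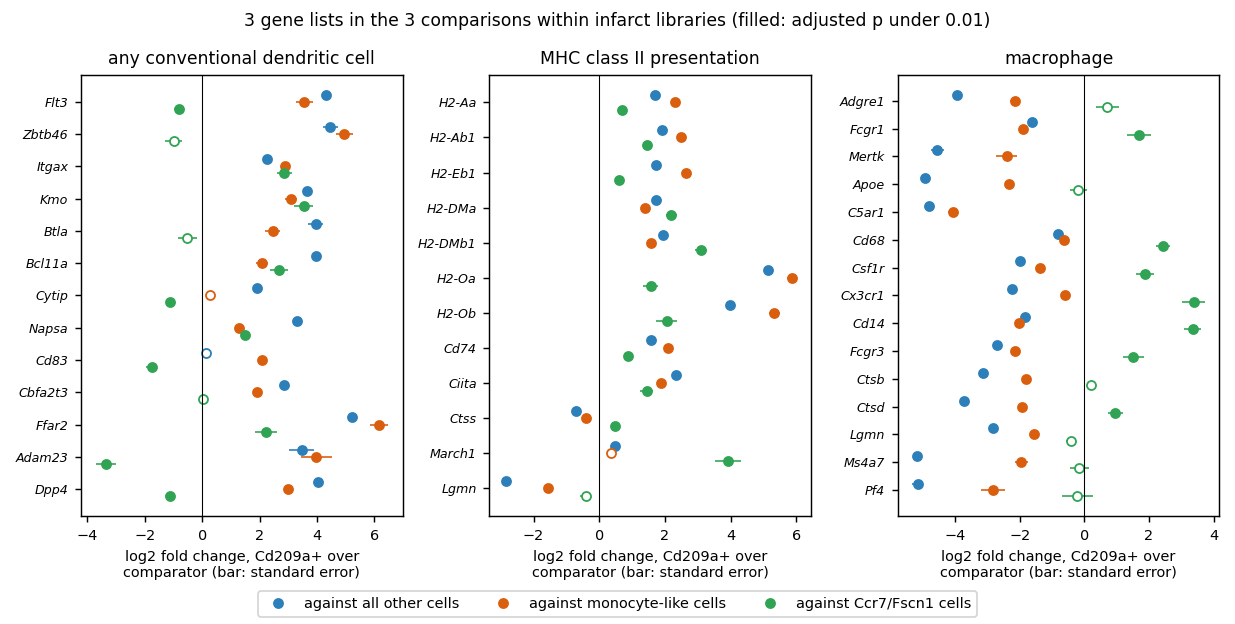
Log2 fold change of Cd209a+ cells over 3 comparator classes for 3 gene lists, fitted over the 3 infarct libraries; bars are standard errors, and filled points have an adjusted p under 0.01. Conventional dendritic cell genes lie right of 0 against other and monocyte-like cells and on both sides against Ccr7/Fscn1 cells, and macrophage genes lie left of 0 in the first 2 comparisons.

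MHC class II presentation genes summed to 47214 CPM in the Cd209a+ cells at baseline and 62043, 64576 and 65411 CPM in infarct libraries 1 to 3. Of 12 genes tested, 10 were higher and 2 lower against all other cells (median log2 difference 1.72), 9 were higher and 2 lower against monocyte-like cells (1.98), and 11 were higher and none lower against Ccr7/Fscn1 cells (1.45, against 0.04 for all genes). The 2 lower genes were Lgmn and Ctss, lysosomal proteases that macrophages hold in quantity. H2-Ab1, a chain of the I-A molecule, stood at 8237 CPM at baseline and 12039, 12743 and 12371 CPM in infarct libraries 1 to 3, against 4008 CPM and 3814, 3169 and 3084 CPM in other cells. Its log2 fold change was 1.92 (SE 0.05) against all other, 2.48 (SE 0.06) against monocyte-like and 1.45 (SE 0.12) against Ccr7/Fscn1 cells (edgeR adjusted p = 1.3e-18, 4.2e-10 and 1.7e-08). Ciita, the master regulator of class II transcription, stood at 218 and 433, 305 and 320.3 CPM, against 112 and 96.5, 58.6 and 62.1 CPM, with a log2 fold change of 2.33 (SE 0.07) against all other cells. Cd74, the invariant chain that escorts class II molecules, differed by 1.57 (SE 0.05).

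Of the class II genes tested, those with the largest differences from all other and monocyte-like cells were the 2 chains of H2-O, which restrains peptide loading by H2-DM. The marker H2-DMb2, not tested, had log2 ratios to all other cells of 4.24, 4.83 and 4.10 in infarct libraries 1 to 3, above the 3.83, 4.19 and 3.92 of H2-Ob. H2-Oa (chr17:34092340-34095234, plus strand) stood at 58.2 CPM in Cd209a+ cells at baseline and 237, 259 and 188 CPM in infarct libraries 1 to 3, against 3.83 CPM and 8.76, 5.37 and 5.56 CPM in other cells. The classes did not overlap in any library, and the log2 fold change was 5.15 (SE 0.12) against all other, 5.86 (SE 0.15) against monocyte-like and 1.56 (SE 0.24) against Ccr7/Fscn1 cells (edgeR adjusted p = 4.6e-20, 4.8e-10 and 4.5e-05). H2-Ob stood at 57.1 CPM at baseline and 90.9, 88.1 and 80.2 CPM in the infarct libraries, against 9.16 and 6.39, 4.82 and 5.32 CPM, with log2 fold changes of 4.00 (SE 0.12), 5.34 (SE 0.18) and 2.05 (SE 0.32). A UMI of H2-Oa was found in 29.1% of Cd209a+ cells at baseline and 63.0, 65.4 and 60.6% in the infarct libraries, against 1.29% and 2.08, 1.63 and 1.72% of cells over the C1q limit.

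Class II genes are known to share a promoter element, the Y box, bound by the factor NF-Y, and 4 of their promoters are shown for that reason. Each window runs from 250 bases before the RefSeq start to 50 bases from it (GRCm38.p6), is written along the gene's own strand, and has TGATTGG, the core letters of the Y box, in capitals.
H2-Aa: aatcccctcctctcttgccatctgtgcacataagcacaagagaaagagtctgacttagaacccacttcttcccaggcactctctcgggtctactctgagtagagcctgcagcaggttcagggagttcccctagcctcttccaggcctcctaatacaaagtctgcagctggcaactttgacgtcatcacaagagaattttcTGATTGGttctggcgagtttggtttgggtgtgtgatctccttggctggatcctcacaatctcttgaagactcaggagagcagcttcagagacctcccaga
H2-DMb2: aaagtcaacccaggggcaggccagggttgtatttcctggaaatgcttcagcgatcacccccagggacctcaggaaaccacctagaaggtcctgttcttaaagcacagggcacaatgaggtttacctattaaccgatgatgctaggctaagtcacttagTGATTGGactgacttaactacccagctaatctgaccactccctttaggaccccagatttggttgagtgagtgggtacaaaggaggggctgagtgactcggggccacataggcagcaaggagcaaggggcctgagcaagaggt
H2-Oa: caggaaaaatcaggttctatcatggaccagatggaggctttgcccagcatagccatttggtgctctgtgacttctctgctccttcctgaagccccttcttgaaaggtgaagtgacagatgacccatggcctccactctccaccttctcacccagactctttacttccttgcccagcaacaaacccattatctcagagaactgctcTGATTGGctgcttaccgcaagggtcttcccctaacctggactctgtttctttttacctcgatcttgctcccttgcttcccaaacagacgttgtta
H2-Ob: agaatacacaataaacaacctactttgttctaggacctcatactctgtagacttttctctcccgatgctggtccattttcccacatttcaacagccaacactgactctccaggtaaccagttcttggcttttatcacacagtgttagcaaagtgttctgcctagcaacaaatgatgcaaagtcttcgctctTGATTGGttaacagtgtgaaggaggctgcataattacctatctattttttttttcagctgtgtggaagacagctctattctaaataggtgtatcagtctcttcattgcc
The windows are chr17:34287774-34288073 (minus strand) for H2-Aa, chr17:34144999-34145298 for H2-DMb2, chr17:34092129-34092428 for H2-Oa and chr17:34238655-34238954 for H2-Ob, the last 3 on the plus strand. The letters begin 50 bases before the start in H2-Aa, 92 in H2-DMb2, 45 in H2-Oa and 59 in H2-Ob. Of the 8 listed class II chain and chaperone genes, 7 matched a RefSeq promoter and 6 of these held the letters on the gene's strand, against 1318 of 32851 windows (4.01%). On either strand, 2568 windows (7.82%) held them. The match is a description and was read from the reference, not from these cells.

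The lectins formed a narrow group. Of 20 C-type lectin genes tested against all other cells, 8 were higher and 10 lower, with a median of -0.63, and the higher ones were the Cd209 relatives Cd209b, Cd209c, Cd209d and Cd209e with Mgl2, Clec10a, Clec4b1 and Klra17. Reads of such near-identical family members may be split or lost in counting, so the small Cd209 genes are uncertain. Cd209d (chr8:3871824-3878555, minus strand) stood at 91.4 CPM at baseline and 87.3, 105 and 37.9 CPM in the infarct libraries, against 3.54 and 0.864, 0.855 and 0.455 CPM in other cells, a log2 fold change of 6.71 (SE 0.20). Clec10a, a galactose-binding lectin (chr11:70156197-70170834, plus strand), stood at 232 CPM at baseline and 573, 553 and 458 CPM after infarction, against 64.1 and 35.4, 21.6 and 25.2 CPM. Its log2 fold change was 4.31 (SE 0.10) against all other, 3.89 (SE 0.11) against monocyte-like and 5.99 (SE 0.33) against Ccr7/Fscn1 cells (edgeR adjusted p = 2.0e-20, 9.2e-10 and 1.3e-10). Its neighbour Mgl2 (chr11:70130329-70137550, plus strand) stood at 723 CPM at baseline and 486, 479 and 600.5 CPM in the infarct libraries, against 626 and 34.6, 26.5 and 39.5 CPM in other cells. Mgl2 therefore marked the Cd209a+ cells only in the infarct libraries, with a log2 fold change of 4.00 (SE 0.08), while at baseline the other cells held nearly as much, and 81.5% of the cells over the C1q limit had a UMI of it. The lectins of monocytes and macrophages were lower, with Clec4a2 at -1.17 (SE 0.09) against all other and -1.20 (SE 0.12) against monocyte-like cells.

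Several receptors named for natural killer cells accompanied Klrd1. Klrb1b stood at 56.8 CPM at baseline and 117, 154 and 72.0 CPM in the infarct libraries, against 2.67 and 3.88, 3.85 and 2.47 CPM in other cells, a log2 fold change of 5.07 (SE 0.12) against all other and 5.47 (SE 0.19) against monocyte-like cells. Klrk1, which encodes NKG2D, stood at 147 and 122, 109 and 71.4 CPM against 10.9 and 5.15, 5.34 and 3.92 CPM, a log2 fold change of 4.41 (SE 0.12). Klre1 was far lower, at 5.89 and 7.19, 7.95 and 9.89 CPM, and differed by 5.05 (SE 0.49). Cd7, a surface glycoprotein of lymphocytes, stood at 108 CPM at baseline and 212, 219.9 and 134 CPM in the infarct libraries, against 3.51 and 5.04, 3.85 and 1.96 CPM in other cells, a log2 fold change of 5.76 (SE 0.12) (edgeR adjusted p = 7.1e-21). Of the 7 listed genes of natural killer and T cells that could be tested, 3 were higher and none lower, and those 3 were the receptors Klrk1, Klre1 and Klrc2. The cytotoxic genes Gzma, Prf1 and Nkg7 were each at 2.65 CPM or less in every library.

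Other genes with the largest differences had diverse roles. Ffar2, a receptor for short-chain fatty acids (chr7:30818348-30823775, minus strand), stood at 4.16 CPM (12 UMIs) at baseline and 153, 141 and 78.0 CPM in the infarct libraries, against 0.278 and 4.30, 3.70 and 2.11 CPM. Its log2 fold change was 5.23 (SE 0.11) against all other, 6.15 (SE 0.32) against monocyte-like and 2.22 (SE 0.38) against Ccr7/Fscn1 cells (edgeR adjusted p = 7.6e-21, 1.0e-07 and 1.3e-04). Cdh1, the adhesion molecule E-cadherin, stood at 70.1, 69.6 and 56.0 CPM in the infarct libraries against 2.84, 1.66 and 1.14 CPM, a log2 fold change of 5.19 (SE 0.20). Ddr1, a collagen receptor, differed by 5.32 (SE 0.20), P2ry10, a lysophospholipid receptor, by 4.50 (SE 0.14), and Siglecg, an inhibitory lectin, by 4.69 (SE 0.22). Fxyd7, a regulator of the sodium pump, differed by 4.42 (SE 0.31), but its 34.5, 21.9 and 96.1 CPM were unevenly held, with 50% of its UMIs in 3, 4 and 10 cells of infarct libraries 1 to 3. Itgb7, an integrin chain of gut-homing leukocytes, stood at 240.5, 206 and 222 CPM against 31.5, 17.4 and 19.3 CPM and differed by 3.35 (SE 0.11), whereas 8 of 17 integrin genes were lower, Itga5 among them at -0.72 (SE 0.13).

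Macrophage genes were lower than in all other and in monocyte-like cells, as a limit on C1q selects for. All 15 listed were lower against all other cells (median -3.14) and all 15 against monocyte-like cells (-1.95), to which the same C1q limit applied. Against Ccr7/Fscn1 cells, 7 of 13 tested were higher (Cd14, Cd68, Cx3cr1, Csf1r, Fcgr3, Fcgr1 and Ctsd) and none lower, with a median of 0.96. All 12 genes of reparative infarct macrophages were lower against all other cells, with a median of -4.11. Against the other cells under the C1q limit only, 12 of 13 conventional dendritic cell genes and 10 of 12 class II genes were still higher, and 15 of 15 macrophage genes were still lower. Of 13 type 2 genes in that comparison, 7 were higher and 5 lower, and Sirpa, Clec4a2 and Itgam were again lower, at -0.57, -0.75 and -0.63. Ms4a7, a membrane protein of macrophages, stood at 52.1, 84.8 and 49.4 CPM in the infarct libraries against 1719, 2860.0 and 2424 CPM in other cells. Csf1r, whose promoter drives the reporter used in sorting, stood at 238 CPM at baseline and 180.4, 195 and 189 CPM in the infarct libraries, against 1079 and 755, 762 and 788 CPM in other cells, so that no library of one class overlapped the other. The neutrophil and monocyte alarmins S100a8 and S100a9 stood at 2.52 CPM or less in the Cd209a+ cells of every library, against 83.2, 58.2 and 78.8 CPM of S100a8 in other infarct cells.

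Against monocyte-like cells, all 10 listed genes of classical monocytes that could be tested were lower, with a median of -2.87, as a class cut on Ly6c2 would hold more of them. Vcan, a matrix proteoglycan made by monocytes, stood at 10.4, 11.3 and 4.39 CPM against 687, 528 and 365 CPM in monocyte-like cells, a log2 fold change of -5.91 (SE 0.13). Ccr2, the receptor that draws monocytes and their relatives into tissue, was shared, at 1168 CPM in Cd209a+ cells at baseline and 1024, 843 and 895 CPM after infarction, against 1746, 1591 and 1502 CPM in monocyte-like and 107, 75.3 and 5.22 CPM in Ccr7/Fscn1 cells. Its log2 fold change was 0.72 (SE 0.07) against all other and -0.77 (SE 0.06) against monocyte-like cells (edgeR adjusted p = 6.8e-09 and 1.5e-06). Cd209a+ cells with at least 2 UMIs of Ly6c2 itself were 20.4% at baseline and 12.3% ± 2.34 (SD, n = 3) in the infarct libraries. Without them, 3956 genes were called against all other cells in place of 4257.

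Among soluble mediators, Il1b stood out in level. It stood at 1132 CPM at baseline and 1734, 3516 and 1875 CPM in infarct libraries 1 to 3, against 826 and 753, 913 and 625 CPM in other cells and 1591, 2988 and 1475 CPM in monocyte-like cells of the infarct libraries. It was higher by 1.61 (SE 0.08) than in all other cells, but by 0.28 (SE 0.05) only than in monocyte-like cells (edgeR adjusted p = 1.0e-13 and 0.002). Its decoy receptor Il1r2 stood at 20.8 and 64.3, 144 and 70.3 CPM, against 3.43 and 4.05, 6.32 and 4.47 CPM, and differed by 4.20 (SE 0.13) and 3.14 (SE 0.22), while the antagonist Il1rn was lower in both comparisons, at -1.90 (SE 0.17) and -3.12 (SE 0.17). Of 16 chemokine ligands, 2 were higher and 13 lower against all other cells. The 2 were Ccl17 and Ccl22, ligands of the T cell receptor CCR4. Ccl17 stood at 221 CPM at baseline and 92.4, 13.9 and 52.7 CPM after infarction, against 9.38 and 4.03, 0.975 and 11.2 CPM, but a few cells decided its level: of 637 UMIs at baseline, 50% lay in 2 cells, and in the infarct libraries 50% lay in 2, 1 and 1 cells.

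Genes of co-stimulation and checkpoints were mostly higher than in all other and in monocyte-like cells. Of 11 tested, 9 were higher and none lower against all other cells (median 0.86), and 6 were higher and none lower against monocyte-like cells (0.59). The checkpoint genes Btla and Pdcd1lg2 were among the higher ones in both. Against Ccr7/Fscn1 cells, 2 were higher and 6 lower (-1.10). Tnfsf9, the 4-1BB ligand, stood at 118 and 142, 256 and 235 CPM, against 39.4 and 30.5, 45.1 and 53.7 CPM, with log2 fold changes of 2.31 (SE 0.09) and 3.23 (SE 0.16). Tnfsf4, the OX40 ligand, had 0 UMIs at baseline, which allows up to 1.04 CPM by a limit of 3 counts, and 14.7, 35.1 and 8.79 CPM in the infarct libraries, against 0.420, 0.628 and 0.204 CPM in other infarct cells, a log2 fold change of 5.49 (SE 0.39). Cd86 differed by 0.36 (SE 0.09) only. Of 12 genes of MHC class I presentation, 5 were higher and 3 lower against all other cells, with H2-K1 at -0.21 (SE 0.05) and B2m at -0.63 (SE 0.05).

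Interferon-stimulated genes were lower. Of 19 tested, 12 were lower and none higher against all other cells (median -0.58), and 13 were lower and none higher against monocyte-like cells (-1.16). Irf7 stood at 64.7, 106 and 45.0 CPM in the infarct libraries against 97.6, 159.6 and 116 CPM in other and 145, 327 and 203 CPM in monocyte-like cells, and differed by -0.78 (SE 0.11) and -1.57 (SE 0.15). Relatives of Ifitm1 differed by comparison, with 3 of 5 tested higher and none lower against all other cells, and none of 4 higher and 2 lower (Ifitm3 and Ifitm6) against monocyte-like cells. Ifitm2, which lies near it (chr7:140954837-140955987, minus strand), stood at 804 and 2217, 2694 and 1716 CPM, against 799 and 1230.1, 1055 and 879.6 CPM, with log2 fold changes of 1.08 (SE 0.07) against all other and -0.02 (SE 0.06) against monocyte-like cells, the second not past the threshold (edgeR adjusted p = 0.86). Ifitm3 (chr7:141009586-141010770, minus strand) had log2 fold changes of 0.91 (SE 0.05) against all other cells and -0.68 (SE 0.05) against monocyte-like cells.

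Genes of cell division were higher than in other cells of the infarct libraries. Of 15 listed, 10 were higher and none lower against all other cells (median 0.58), and the same count was higher against monocyte-like cells (1.79). Cells with at least 2 UMIs of 8 division genes together were 26.4% of Cd209a+ cells at baseline and 18.9% ± 3.27 (SD, n = 3) in the infarct libraries, against 10.1% and 13.6% ± 2.11 of other cells. The Cd209a+ cells were also the deeper ones, and the part of depth in these shares was not tested. H2afz, a histone variant, stood at 2039.9, 2356 and 2470.0 CPM in the infarct libraries against 907, 992 and 919.8 CPM, a log2 fold change of 1.31 (SE 0.06) (edgeR adjusted p = 1.8e-15). Mki67, the proliferation marker, stood at 239 CPM at baseline and 63.6, 31.8 and 103 CPM after infarction, against 68.1 and 37.0, 40.4 and 57.1 CPM in other cells.

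Against Ccr7/Fscn1 cells, the mature dendritic cells of the same hearts, the Cd209a+ cells held little of the maturation program. All 14 listed mature dendritic cell genes that could be tested were lower, with a median of -6.41, which the limit of 0 Ccr7 UMIs partly selects. Il12b, a chain of the cytokine interleukin 12, had 0 UMIs in the Cd209a+ cells of all 4 libraries and 541 ± 361 CPM (SD, n = 3) in Ccr7/Fscn1 cells. Tnfrsf4 also had 0, against 227 ± 50.8 CPM. Ccl22 stood at 12.6, 3.97 and 7.14 CPM against 516, 403 and 777 CPM, a log2 fold change of -6.18 (SE 0.24), and Cd274, the checkpoint ligand PD-L1, differed by -4.77 (SE 0.23). All 12 class I presentation genes were lower (median -1.46), while 11 of 12 class II genes were higher. The genes of the 2 presentation pathways thus went in opposite directions. B2m differed by -1.62 (SE 0.12) and H2-DMa by 2.20 (SE 0.17) (edgeR adjusted p = 3.4e-09 and 1.2e-08).

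Genes of both classes showed what Cd209a+ and Ccr7/Fscn1 cells held in common. Of 13 conventional dendritic cell genes, 5 were higher and 5 lower between them (median -0.52). The log2 fold change was -0.81 (SE 0.19) for Flt3, 2.86 (SE 0.27) for Itgax and 3.53 (SE 0.33) for Kmo. Of 11 type 2 genes, 8 were higher and 2 lower (Ccr6 and S100a4), with a median of 2.67. Mgl2 stood at 486, 479 and 600.5 CPM in Cd209a+ cells and at 0 UMIs in Ccr7/Fscn1 cells of all 3 infarct libraries. Tbc1d4, a regulator of vesicle traffic, went the other way, at 84.8, 161 and 80.2 CPM against 1984, 1834 and 2072 CPM, a log2 fold change of -4.39 (SE 0.20). Infarct library 3 had 23 Ccr7/Fscn1 cells, so single cells weigh in its values.

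The Cd209a+ cells were divided among themselves by Klrd1. Cells with a Klrd1 UMI held more H2-Oa than those with none, by a ratio of 2.93 in the baseline library and 2.86, 3.04 and 2.96 in the infarct libraries. The ratio for Cd7 was 2.06 in the baseline library and 2.55, 4.91 and 5.94 in the infarct libraries, and for Cdh1 it was 5.62 in the baseline library and 2.98, 6.25 and 6.22 in the infarct libraries. Lyz2, the lysozyme of monocytes and macrophages, ran the other way, with a ratio of 0.345 in the baseline library and 0.235, 0.295 and 0.142 in the infarct libraries. The direction of these 4 ratios was the same in every library. At baseline the Cdh1 ratio rests on 11 UMIs in all, with 0.963 CPM in the cells without Klrd1. Infarct library 2 had 19 cells without Klrd1, so single cells weigh in its ratios. Class II itself hardly differed, with H2-Ab1 at 1.18 in the baseline library and 1.16, 1.30 and 1.13 in the infarct libraries, and Mgl2 was lower in cells with Klrd1, at 0.875 in the baseline library and 0.793, 0.604 and 0.741 in the infarct libraries. Median depths of cells with and without Klrd1 were 11032.5 and 9098 UMIs at baseline, 10030 and 9565, 9836 and 9371, and 9687.5 and 10460.5 in infarct libraries 1 to 3. Cells cut on 1 gene share their libraries, so these ratios are a description with no test.

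**Figure D4:**
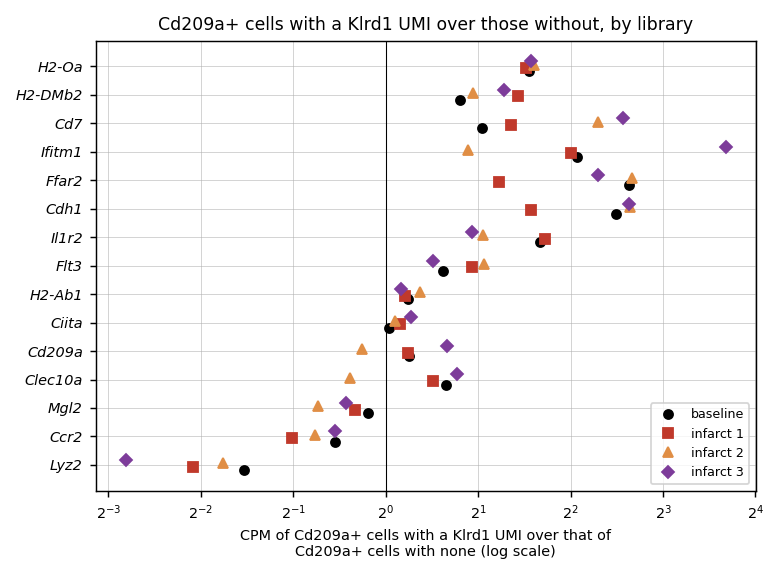
Ratio of CPM between Cd209a+ cells with a Klrd1 UMI and those with none, on a log axis, with 1 point per library for 15 genes. H2-Oa, Cd7, Ffar2 and Cdh1 lie right of 1 in all 4 libraries, and Ccr2, Mgl2 and Lyz2 lie left of 1.

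A small set carried genes of plasmacytoid dendritic cells, the interferon-producing relatives of these cells. At least 2 UMIs of Siglech and Ccr9 together were found in 16 Cd209a+ cells at baseline (6.04%) and in 14, 10 and 3 cells of infarct libraries 1 to 3 (5.07%, 6.54% and 1.67%). Tcf4, the master factor of that lineage, was higher in them than in Cd209a+ cells with neither gene, by a ratio of 10.6 in the baseline library and 7.11, 8.14 and 6.27 in the infarct libraries. Ly6c2 was higher too, by 11.6 in the baseline library and 31.1, 15.6 and 6.28 in the infarct libraries, whereas Cd209a was lower, with a ratio of 0.600 in the baseline library and 0.450, 0.323 and 0.261 in the infarct libraries, and Il1b lower still, at 0.258 in the baseline library and 0.182, 0.128 and 0.0274 in the infarct libraries. Of the 10 listed plasmacytoid genes, 8 were higher and 1 (Bst2) lower in the whole population than in all other cells (median 2.96). None passed the threshold against monocyte-like cells. A Siglech UMI was found in 8.30% of Cd209a+ cells at baseline and 8.33, 10.5 and 5.00% in infarct libraries 1 to 3. Cells over the C1q limit had nearly the same share at baseline, 7.73%, but 0.574, 0.543 and 0.689% in the infarct libraries. Of all Siglech UMIs, 50% lay in 4 cells at baseline and in 3, 2 and 1 cells of the infarct libraries. The 3 cells of infarct library 3 give its ratios little weight.

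Ifitm1 and Il1r2 also marked overlapping but unequal sets of cells. In Cd209a+ cells with an Ifitm1 UMI, Il1r2 was higher by a ratio of 1.62 in the baseline library and 2.63, 3.74 and 2.55 in the infarct libraries. In cells with an Il1r2 UMI, Siglech was low, with a ratio of 0.103 in the baseline library and 0.0766, 0.140 and 0.159 in the infarct libraries. Cells with an Mgl2 UMI held less Cd7, at 0.0915 in the baseline library and 0.247, 0.401 and 0.441 in the infarct libraries. At baseline a further set stood out, in which 15 cells (5.66%) held at least 5 UMIs of Retnla, a secreted protein of resident macrophages and some dendritic cells. Those 15 cells held 17545 CPM of Lyz2, 648 CPM of the lipoprotein lipase Lpl and 10.2 CPM of Flt3, against 5622, 36.0 and 114 CPM in the 206 cells with no Retnla. They also held less Klrd1, 40.8 against 290.2 CPM. Cells with at least 5 Retnla UMIs were 0 of 276, 153 and 180 in the infarct libraries.

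The design also sets infarcted hearts against hearts with no surgery, to ask what changes in these cells after coronary occlusion. With 1 baseline library there is no test, and a gene was counted when its mean infarct level differed at least 2-fold from baseline with all 3 infarct libraries on the same side and a mean of at least 50 CPM. Of 2859 genes at that level, 73 (2.55%) were higher and 100 (3.5%) lower, with a median log2 ratio of -0.01. With trimmed-mean (TMM) scaling, the split was 113 higher and 57 lower and the median 0.18, so the balance of the 2 directions rests on the scaling. The baseline library also pooled 3 hearts and each infarct library held 1, which cannot be told apart from infarction here. Of the 73 higher genes, 57 were also higher in all other cells in all 3 infarct libraries and 8 were lower there. Of the 100 lower genes, 85 were also lower in those cells and 6 were higher. A 2-fold difference in the same direction was reached there by 25 of the 73 and 49 of the 100. By the same rule, all other cells had 69 of 3032 genes higher and 140 lower. Without infarct library 3, which differs in Xist, 77 genes were higher and 119 lower, of which 163 genes were among the 173.

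Of the genes ranked, Ifitm1 had the largest ratio. It went from 23.6 CPM at baseline (exact Poisson 95% interval 18.3 to 29.9, counting error only) to 1724, 2407 and 649.9 CPM in infarct libraries 1 to 3, a mean of 1594 ± 886 CPM (SD, n = 3) and a ratio of 67.7. Every infarct library lay far above the baseline interval, with infarct library 3 the lowest. The log2 ratio was 6.08 in Cd209a+ cells, 2.76 in all other cells and 5.11 in monocyte-like cells. Ifitm2 went from 804 to 2217, 2694 and 1716 CPM, a log2 ratio of 1.46. None of the 6 interferon-stimulated genes of sufficient level passed the 2-fold limit, their median being 0.62.

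Markers of the population itself differed as well. Klrd1 went from 249 CPM at baseline (interval 231 to 268) to a mean of 608 ± 105 CPM, a ratio of 2.44, and H2-DMb2 from 89.7 (interval 79.1 to 101) to 196 ± 39.5 CPM, a ratio of 2.18. Clec10a went from 232 (interval 215 to 250.3) to 528 ± 61.2 CPM, a ratio of 2.28, while its level in all other cells changed by a log2 ratio of -1.23. Cd209a itself, read by the selection, stood at 1117 CPM and 1229 ± 159 CPM. Flt3 stood at 102 CPM (interval 90.8 to 115) and 99.0 ± 16.3 CPM, Zbtb46 at 34.6 (interval 28.2 to 42.1) and 27.8 ± 3.53 CPM, and neither passed the limit. Of 10 conventional dendritic cell genes of sufficient level, 1 was past the limit, Ffar2, and the median was 0.10.

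**Figure D5:**
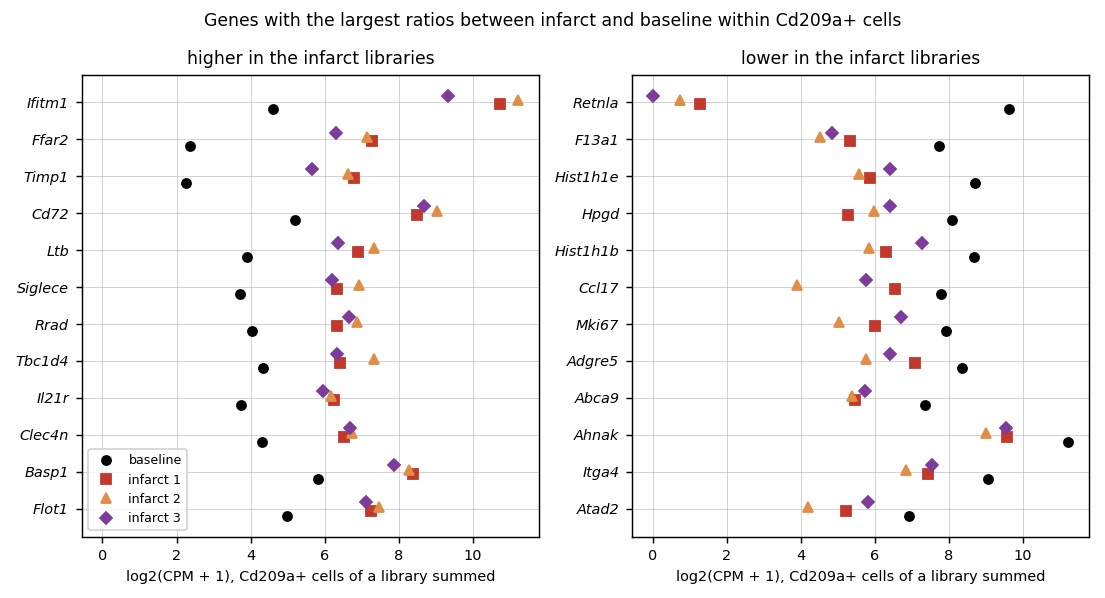
Level of the 12 genes with the largest ratio in each direction between infarct and baseline within Cd209a+ cells, as log2(CPM + 1) with cells summed per library; each point is 1 library. The 3 infarct points lie on 1 side of the baseline point for every gene shown, with Ifitm1 and Retnla furthest from it.

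Ffar2 went from 12 UMIs, 4.16 CPM at baseline (interval 2.15 to 7.26), to 153, 141 and 78.0 CPM in infarct libraries 1 to 3, a ratio of 29.9. A UMI of it was found in 2.26% of Cd209a+ cells at baseline (interval 0.835 to 4.86%) and in 55.1, 49.7 and 35.0% after infarction, against 0.0300% and 0.803, 0.798 and 0.416% of cells over the C1q limit. Cdh1 went from 3.81 (interval 1.90 to 6.82) to 70.1, 69.6 and 56.0 CPM. Its mean over the libraries was just under 50 CPM, so it was not among the genes counted. A UMI of it was found in 3.40% and 35.1, 34.0 and 28.3% of the cells. With thinning, the shares were 0.758% at baseline and 17.6% ± 4.08 (SD, n = 3) for Ffar2 and 0.379% and 12.6% ± 1.75 for Cdh1. Ltb, lymphotoxin beta, a signal for lymphoid tissue, went from 13.9 CPM (interval 9.90 to 18.9) to 119, 162 and 81.3 CPM, whereas in all other cells its log2 ratio was -0.81 against 3.12 here. Timp1, an inhibitor of matrix proteases, went from 3.81 (interval 1.90 to 6.82) to 86.4 ± 32.2 CPM, with log2 ratios of 3.52 in all other and 4.01 in monocyte-like cells and a ratio of 22.7 here.

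RNA of class II presentation genes was higher by a smaller amount. H2-Ab1 went from 8237 to 12039, 12743 and 12371 CPM and Ciita from 218 to 433, 305 and 320.3 CPM, with log2 ratios of 0.59 and 0.70 against -0.26 and -0.63 in all other cells. In monocyte-like cells the log2 ratio of H2-Ab1 was 1.99. Of 12 class II genes, only H2-Oa passed the 2-fold limit, from 58.2 CPM (interval 49.7 to 67.7) to 237, 259 and 188 CPM, a ratio of 3.92, and the median of the list was 0.54 against -0.01 for all genes. Il1b went from 1132 (interval 1093 to 1171) to 1734, 3516 and 1875 CPM, a log2 ratio of 1.07. Cd72, a receptor of B cells and macrophages, went from 36.0 (interval 29.4 to 43.6) to 363, 521 and 413 CPM, and the log2 ratio in monocyte-like cells was 3.68 against 3.59 here.

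Among the lower genes, the macrophage protein Retnla went from 785 CPM (interval 753 to 818) to 1.44, 0.662 and 0 CPM in infarct libraries 1 to 3. Its level in all other cells went from 842 to 39.3, 10.0 and 20.8 CPM. At baseline 3 of the Cd209a+ cells held 50% of its 2267 UMIs, and the 5 highest held 64.8%, so its level there rests on few cells. Fabp4, a fatty acid carrier, went from 134 to 2.16, 3.97 and 1.10 CPM, but its mean was under 50 CPM, so it was not counted. Its level also rests on few cells, with 50% of its UMIs at baseline in 2 cells. F13a1, coagulation factor XIII, went from 213 (interval 196 to 230.2) to 38.8, 21.9 and 27.5 CPM, a log2 ratio of -2.86 against -2.96 in all other cells. Ccl17 went from 221 to 92.4, 13.9 and 52.7 CPM, on the few cells named above.

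Some genes of division were lower after infarction, but the list as a whole was not, summing to 3122 CPM at baseline and 2955, 3077 and 3718 CPM in infarct libraries 1 to 3. Mki67 went from 239 CPM (interval 222 to 258) to 63.6, 31.8 and 103 CPM, a log2 ratio of -1.85. Without the Cd209a+ cells that held division genes the log2 ratio was -0.33, but leaving out such cells removes Mki67 UMIs by selection. Within the left-out cells, Mki67 stood at 679 CPM at baseline and at 259, 170 and 348 CPM in infarct libraries 1 to 3. Whether fewer dividing cells take part in the difference was not tested. Of 6 division genes of sufficient level, 3 were past the limit, Mki67, Top2a and Stmn1, with a list median of -0.60. The linker histones Hist1h1e and Hist1h1b went from 412 and 408 CPM to 57.5, 46.4 and 84.1 CPM and 77.3, 56.3 and 154 CPM, and Hist1h1e had a log2 ratio of -2.18 in all other cells against -2.72 here. Ahnak, a large scaffold protein, went from 2385 to 758, 515 and 739 CPM and Itga4, an integrin chain, from 531 to 171, 114 and 185 CPM. Their log2 ratios of -1.83 and -1.76 were close to those in all other cells, -1.54 and -1.61.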

How the data were processed

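UMI counts of sorted CSF1R-EGFP+ Ly6G- heart cells were analysed in 4 libraries, grouped by the labels as 1 baseline and 3 infarct libraries. Before deposit, the authors aligned reads and counted UMIs per gene and cell with Cell Ranger (3.0.1 per the labels, 3.1.0 per the file headers), and the deposited values are raw counts. Cells were kept as stated in the report, 10117 to 10782 a library. The members, gene lists and comparisons were chosen with earlier results of these data known.

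Counts were summed over the cells of a class in each library. Classes were compared within the 3 infarct libraries by the quasi-likelihood test of edgeR 4.0.16 (R 4.3.3), with TMM scaling, a filter on low counts and the library as a block, and Benjamini-Hochberg adjustment over all genes tested. The 5 genes of the selection and 3 markers were not tested, nor the genes that define a comparator. Infarct was compared with baseline by CPM without a test. Intervals are exact binomial or Poisson intervals at 95% and cover counting error only. Named genes were the 12 with the highest and lowest log2 fold change among those called, with at least 50 CPM on the higher side and the same direction in all 3 infarct libraries, from which the most informative were described, and any gene of the 28 lists (350 genes, 5 not found by symbol). Sex-linked, mitochondrial, ribosomal and unnamed genes were not ranked.

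Doublets were scored with the scrublet function of scanpy 1.11.5 (Python 3.11.15). Its automatic threshold called 2.22% of baseline cells and at most 0.00988% of cells in the infarct libraries and was judged not to have worked, so doublets were kept, and the 8.10 to 8.63% of cells with the highest scores were removed as an alternative. Other alternatives were DESeq2 1.42.0, other filters, limits and scalings, thinning, no block and leaving out each infarct library. Of 22 genes looked up, 16 had a RefSeq promoter. A further gene was left out of the lists and is not reported here.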

Additional observations from a re-analysis of the deposited data

Results flagged for a closer look

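Among the markers and the genes named by rank against all other cells or between infarct and baseline, the only genes searched, 5 stood on opposite sides of the other cells in the 2 groups, below them in the baseline library and above them in every infarct library. The difference between groups was not tested, since there is 1 baseline library. The values are log2 ratios of CPM in Cd209a+ cells over all other cells of a library.

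Ltb, lymphotoxin beta, was at -0.27 at baseline and at a mean of 3.62 in the infarct libraries. Tbc1d4 was at -0.82 at baseline and a mean of 2.15 in the infarct libraries. Flot1, a scaffold protein of membrane rafts, was at -0.18 and 1.41. Siglece, an inhibitory lectin, was at -2.22 and 0.88. Il21r, the interleukin 21 receptor, was at -1.07 and 0.38.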

How the results depend on the processing

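Single genes were followed only if named by rank, as the 12 highest and 12 lowest of each comparison, and thus had large differences. None of their values changed sign under the alternatives run, and other genes were not followed. TMM scaling turned the balance between infarct and baseline from 73 higher and 100 lower genes to 113 higher and 57 lower. Thinning each cell to 2000 UMIs gave 2297 genes called against all other cells in place of 4257, 1191 against monocyte-like cells in place of 2237, and 1062 against Ccr7/Fscn1 cells in place of 1988. Against only those other cells that were under the C1q limit, 2656 genes were called, and the Wald test of DESeq2 called 1377 genes against monocyte-like cells. Between infarct and baseline, 2292 genes (506 higher, 1786 lower) passed the fold with no filter and 374 (128 higher, 246 lower) with a mean of at least 20 CPM, in place of 173. The baseline share was 3.23% with at least 1 Cd209a UMI, 3.07% with no C1q limit and 1.67% with thinning, and the infarct mean 1.19% with thinning. The causes were not tested. Leaving out 1 infarct library at a time gave 3265 to 3835, 1740 to 2545 and 1679 to 1871 genes in the 3 comparisons, 168 to 196 genes past the fold and infarct shares of 1.60 to 2.22%. Without the replicate block that pairs the sums of a library, 3169, 1577 and 2062 genes were called. Between infarct and baseline, no paired analysis was possible because the baseline group has 1 library. Of the values for the genes named by rank, 1206 kept their direction and side of the threshold or moved little, 13 moved and 1, Ctsk without the block, no longer passed it. Members with Ly6c2, with Xcr1 or Clec9a, or with division genes were left out as alternatives chosen after seeing the data, which gave 3956, 4212 and 4011 genes against all other cells. A comparison with Xcr1/Clec9a cells was not run, since infarct libraries 2 and 3 held 6 and 12 of them, under the 20 required. Depth limits genes of few UMIs at baseline, where 3 counts correspond to 1.04 CPM.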
